A study of Homo sapiens with 3 samples.

Results

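The strong H3K4me3 peaks of HCC1599 cells at which no H3K27ac peak was called numbered 2972. They were chosen by 2 measured values in the deposited lists, an H3K4me3 score of at least 500 and the absence of any H3K27ac peak overlapping by 1 bp or more, among peaks on chromosomes 1 to 22. They made up 18.5% (18.0 to 19.2) of the 16022 strong H3K4me3 peaks on these chromosomes and 9.56% of all 31074 autosomal H3K4me3 peaks. The remaining 13050 strong peaks overlapped H3K27ac and are called doubly marked below. HCC1599 is an established line of triple-negative breast cancer, and the series' design text calls the cells MARCO-TST positive. The 3 samples were 1 chromatin immunoprecipitation library for H3K27ac, made with an Active Motif antibody, 1 for H3K4me3, made with a Cell Signaling Technology antibody, and 1 input, which is not analysed here beyond its use by the authors in peak calling. All came from this line, and the labels name no treatment, genotype or time that set them apart. With 1 library per mark there was no replicate error and no test. A mark described as missing is one for which the authors' list holds no peak at that place. Paired values in parentheses after a share are exact Clopper-Pearson 95% intervals, for counting error alone, although nearby peaks and genes are not independent. The score is the authors' own value for each peak, with no stated unit, and the number of reads behind it is unknown.

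H3K4me3 is written at promoters by the SET1 and MLL methyltransferases and is found at most CpG-rich promoters, active or not. H3K27ac is written by the acetyltransferases p300 and CBP and accompanies active promoters and enhancers. Promoters of developmental genes that carry H3K4me3 together with the Polycomb mark H3K27me3, and little acetylation, are known as bivalent or poised. H3K27me3 was not analysed here, so whether the 2972 peaks are poised promoters in that sense cannot be told from these lists, and they are described by their marks alone.

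The promoters of 8 genes from this set are shown as examples of the DNA under the peaks, one from each of 8 gene families, taken by peak score and width. Each run is the 250 bases upstream of the annotated start, read 5′ to 3′ on the strand of the gene, from RefSeq sequence of GRCh38.p14, and every CpG dinucleotide is in capitals. ERBB4 encodes a receptor tyrosine kinase, HLX a homeobox transcription factor, CRHR1 the receptor of corticotropin-releasing hormone and CLSTN2 a synaptic adhesion protein. MAP1B encodes a neuronal microtubule-associated protein, SLC30A3 a vesicular zinc transporter and ZNF324 a zinc finger protein, and the last run belongs to ARHGEF26.
ERBB4, chr2:212538803-212539052, minus strand: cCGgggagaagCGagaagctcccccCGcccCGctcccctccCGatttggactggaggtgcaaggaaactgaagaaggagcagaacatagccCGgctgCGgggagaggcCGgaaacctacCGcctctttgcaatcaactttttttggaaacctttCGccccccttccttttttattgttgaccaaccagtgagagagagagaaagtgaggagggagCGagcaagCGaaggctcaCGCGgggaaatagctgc
HLX, chr1:220879193-220879442, plus strand: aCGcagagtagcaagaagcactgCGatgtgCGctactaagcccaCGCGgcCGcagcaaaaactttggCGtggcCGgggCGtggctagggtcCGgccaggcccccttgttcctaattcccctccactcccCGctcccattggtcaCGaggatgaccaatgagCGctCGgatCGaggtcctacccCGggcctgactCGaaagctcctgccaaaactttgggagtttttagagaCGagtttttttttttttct
CRHR1, chr17:45784070-45784319, plus strand: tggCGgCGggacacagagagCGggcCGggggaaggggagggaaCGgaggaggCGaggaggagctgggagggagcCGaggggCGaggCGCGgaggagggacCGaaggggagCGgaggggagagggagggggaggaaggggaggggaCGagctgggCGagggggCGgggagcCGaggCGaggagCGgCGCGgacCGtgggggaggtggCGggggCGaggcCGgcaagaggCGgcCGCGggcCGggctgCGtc
CLSTN2, chr3:139934935-139935184, plus strand: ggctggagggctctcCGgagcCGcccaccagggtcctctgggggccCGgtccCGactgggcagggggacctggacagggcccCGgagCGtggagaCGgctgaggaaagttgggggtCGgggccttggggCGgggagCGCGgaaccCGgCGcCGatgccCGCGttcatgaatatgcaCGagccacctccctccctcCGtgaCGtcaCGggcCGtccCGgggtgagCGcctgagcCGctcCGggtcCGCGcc
MAP1B, chr5:72107225-72107474, plus strand: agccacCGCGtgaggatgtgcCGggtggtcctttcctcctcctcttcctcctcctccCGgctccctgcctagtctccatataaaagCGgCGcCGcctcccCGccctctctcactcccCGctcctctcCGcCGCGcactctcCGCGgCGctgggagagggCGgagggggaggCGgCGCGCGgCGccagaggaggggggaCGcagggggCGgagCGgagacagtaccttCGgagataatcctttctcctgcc
SLC30A3, chr2:27263048-27263297, minus strand: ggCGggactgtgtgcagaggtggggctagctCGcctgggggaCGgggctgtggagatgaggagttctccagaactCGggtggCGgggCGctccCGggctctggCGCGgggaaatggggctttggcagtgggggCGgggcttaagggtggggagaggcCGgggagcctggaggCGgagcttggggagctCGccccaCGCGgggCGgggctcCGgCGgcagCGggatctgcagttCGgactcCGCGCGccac
ZNF324, chr19:58466830-58467079, plus strand: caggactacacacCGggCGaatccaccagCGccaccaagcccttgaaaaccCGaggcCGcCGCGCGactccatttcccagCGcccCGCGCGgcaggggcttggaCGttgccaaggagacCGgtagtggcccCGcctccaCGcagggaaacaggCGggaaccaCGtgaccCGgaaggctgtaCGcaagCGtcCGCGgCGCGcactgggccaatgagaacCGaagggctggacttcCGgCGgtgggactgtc
ARHGEF26, chr3:154120753-154121002, plus strand: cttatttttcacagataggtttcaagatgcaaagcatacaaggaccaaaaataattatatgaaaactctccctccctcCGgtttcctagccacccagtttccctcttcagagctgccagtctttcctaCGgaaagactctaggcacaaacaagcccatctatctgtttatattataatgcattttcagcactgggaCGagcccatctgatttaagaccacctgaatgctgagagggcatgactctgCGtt
All of these runs but the last were dense in CpG. CRHR1 held 29 CpG, ZNF324 28, CLSTN2 27, MAP1B 25, SLC30A3 23, HLX 18 and ERBB4 14, while ARHGEF26 held 4 at a G plus C content of 43.6%. The ARHGEF26 peak was nevertheless among the widest of the set, with 4486 bp and a score of 3100.

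The peaks without H3K27ac were narrower than the doubly marked ones. The median was 1856 bp wide (quartiles 1470 and 2344, extremes 246 and 7152), against 3335 bp (2451 to 4443.8, up to 38262) for doubly marked peaks. In total they covered 5.85 Mb, and doubly marked peaks covered 47.9 Mb. The share of strong peaks without H3K27ac fell with width, from 53.0% of peaks of 1000 to 1500 bp to 29.6% at 2000 to 2500 bp, 5.59% at 3000 to 4000 bp and 0.251% (3 of 1194) at 6000 bp or more. A wide peak has more bases at which an H3K27ac peak can meet it, so the rule itself bears on this order, and it is a description.

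The score separated the sets less sharply below its ceiling. The median score was 1708.7 (932.5 to 3100), and 700 peaks stood exactly at 3100, where the values pile up. From 500 to 2000 the share without H3K27ac lay between 41.6% and 46.5% in each score band, it was 34.7% from 2000 to 3100, and it was 7.03% at 3100 or more. At 3100 or more were 755 of the 2972 peaks (25.4%), against 76.5% of doubly marked peaks. The peak nearest above the minimum, at the start of the malic enzyme gene ME3 (chr11:86671098-86672691), scored 500.32 and had H3K27ac 11820 bp away. Next came 500.39 and 500.67, for peaks whose nearest protein-coding genes were TLE4 and VGLL2. Just below the minimum, 3 H3K4me3 peaks without H3K27ac scored 499.94, inside PAK5, 499.32 and 499.01. Peaks on either side of the minimum were thus alike in score, and 5921 weaker H3K4me3 peaks also lacked H3K27ac.

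**Figure D1:**
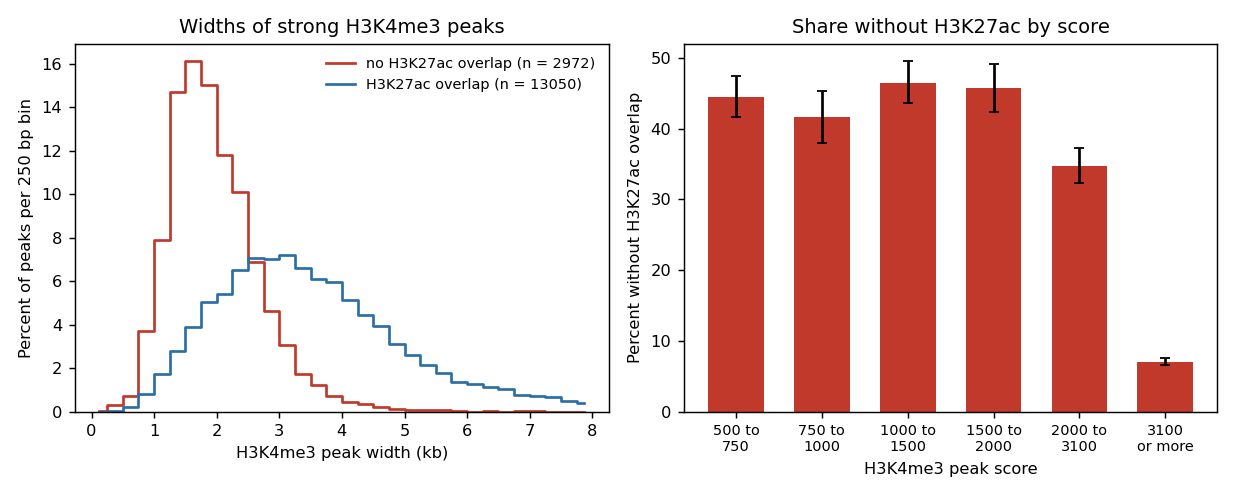
Left, width in kb of strong H3K4me3 peaks on chromosomes 1 to 22, for the 2972 without H3K27ac and the 13050 that overlap it. Right, percent of strong H3K4me3 peaks without H3K27ac overlap, by band of the authors' score. The set without H3K27ac has its median width at 1856 bp and the doubly marked set at 3335 bp. The share without H3K27ac is 41.6% to 46.5% in the bands from 500 to 2000. It is 34.7% from 2000 to 3100 and 7.03% at 3100 or more.

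No H3K27ac peak lay within 10 kb at 66.6% of the peaks. At doubly marked peaks, leaving out the H3K27ac peaks that overlap them, this share was 37.1%. Some gap is required by the rule, and the distance from other kinds of site was not tested. The median gap to the nearest H3K27ac peak was 18055.5 bp (6440.2 to 40763). It was under 1 kb at 214 peaks (7.2%), 1 to 5 kb at 399 (13.4%) and 5 to 10 kb at 380 (12.8%). At 1401 (47.1%) it was 10 to 50 kb, at 374 (12.6%) 50 to 100 kb and at 204 (6.86%) 100 kb or more. Within 50 kb, the median number of H3K27ac peaks was 2, and 19.4% of the set had none. Around doubly marked peaks the median number of H3K27ac peaks, beside those overlapping them, was 5, and 5.66% had none.

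Peaks of the set tended to follow one another along the chromosome. Of 2966 peaks followed by another strong peak on their chromosome, the next one also lacked H3K27ac in 812 cases (27.4%). After a doubly marked peak this was so in 2151 of 13034 cases (16.5%). Among chromosomes, the share without H3K27ac was highest on chromosome 4 (26.6%, 23.2 to 30.2) and chromosome 13 (25.4%, 20.7 to 30.5) and lowest on chromosome 16 (12.6%, 10.2 to 15.3). Local copy number was not read from these lists, and its part in this order was not tested.

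Promoters of protein-coding genes were the commonest position. A start of a protein-coding gene listed in the RefSeq promoter table lay inside the peak or within 1 kb of it at 1546 peaks (52.0%, 50.2 to 53.8), against 66.3% (65.5 to 67.1) of doubly marked peaks. A further 383 (12.9%) met an end of some protein-coding gene whose start the table does not list. LncRNA starts accounted for 146 (4.91%), ends of other genes for 265 (8.92%), the inside of protein-coding genes for 252 (8.48%) and that of other genes for 72 (2.42%). The remaining 308 (10.4%, 9.29 to 11.5) lay outside genes, against 4.56% (4.21 to 4.93) of doubly marked peaks. Width moved with position: peaks at listed protein-coding starts had a median of 2024.5 bp and those outside genes 1570.5 bp.

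At equal width, the set no longer had the lower share at starts in every band. Among peaks of 1500 to 2000 bp, 47.6% of those without H3K27ac and 42.4% of doubly marked peaks lay at a listed protein-coding start. From 2000 to 2500 bp the shares were 60.6% and 54.3%, and from 2500 to 3000 bp 69.2% and 62.1%. They were in the other order from 1000 to 1500 bp (38.0% and 43.0%) and from 3000 to 4000 bp (70.5% and 74.1%). The set was thus higher in the 3 middle bands, by intervals that overlapped narrowly, and lower in the outer ones.

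Around the start, the mark sat in the same place but reached less far. Of 1841 starts at peaks without H3K27ac, 90.0% lay inside the peak. The peak ran a median of 856 bp upstream and 1256 bp downstream of the start, against 1463 and 2261 bp at 11980 doubly marked starts. It reached farther downstream than upstream at 69.9% of starts, and at 73.6% of doubly marked starts. At 1 kb downstream 70.0% of the starts were still under H3K4me3, and at 2 kb 14.5%, while doubly marked starts gave 95.2% and 64.8%.

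**Figure D2:**
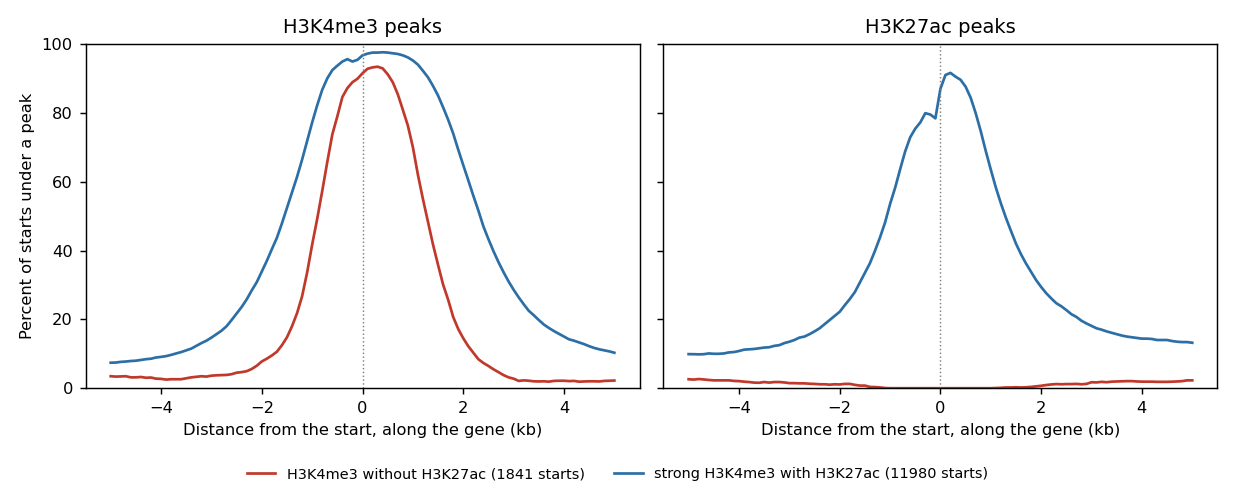
Percent of listed protein-coding starts lying under an H3K4me3 peak (left) and under an H3K27ac peak (right), by distance from the start in kb along the gene, for 1841 starts at strong H3K4me3 without H3K27ac and 11980 doubly marked starts. The H3K4me3 curve of the first set is narrower on both sides, and its H3K27ac curve is at 0 near the start because the rule requires it.

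Few of these peaks served a pair of genes read in opposite directions. Genes on both strands started at 60 of the 1546 peaks at listed starts (3.88%, 2.97 to 4.97), against 1041 of 8652 doubly marked peaks (12%, 11.4 to 12.7). These peaks had a median width of 2024.5 bp, against 3589 bp for the doubly marked ones. A wider peak can reach more starts, and the part of width in this difference was not tested. One such peak, with 2956 bp and a score of 3227.04, held the starts of COL4A1 and COL4A2, the basement membrane collagen genes. Its nearest H3K27ac peak was 38892 bp away.

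By gene, the set marked the starts of 1474 protein-coding genes. Of the 15101 autosomal protein-coding genes with a listed start, this is 9.76% (9.29 to 10.2), the background for all shares by family below. At these genes no H3K27ac peak came within 1 kb of that start. Of the other genes, 8970 (59.4% of all) had a doubly marked start, 550 (3.64%) another H3K4me3 peak and 4107 (27.2%) no H3K4me3 peak. A gene with both kinds of start was counted in the set only, which held for 86 genes. Counts of doubly marked genes, here and by family, leave these out. The count depends on the score limits: it was 2482 genes when only H3K27ac peaks of score 100 or more counted, and 530 with H3K4me3 scores from 3100. Counted instead by either annotated end of all 19126 autosomal protein-coding genes, 1789 (9.35%) lay at such a peak without H3K27ac.

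The genes were long, and H3K27ac inside the span was less frequent than over all genes, an order that the rule itself partly sets. Their median length was 54.2 kb, against 30.3 kb for genes with a doubly marked start and 12.9 kb for those without H3K4me3. An H3K27ac peak lay somewhere in the gene span at 796 of the 1474 genes (54.0%), away from the marked start. The share was 74.9% over all 15101 genes, 99.0% with a doubly marked start and 32.2% without H3K4me3. Genes of the set have no H3K27ac within 1 kb of the marked start by rule. The share over all genes includes those with a doubly marked start, so the difference is a description. The neuronal kinase receptor gene NTRK2, for example, had 10 H3K27ac peaks in its span and none within 79365 bp of its start, while RET had none in its span.

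The families with the highest shares encode receptors, secreted signals and developmental regulators. Families were taken by gene symbol, and a gene can be taken by its name alone, as were GRID2IP, a scaffold protein listed with the glutamate receptors, and KCNIP1, a channel-binding protein listed with the potassium channels. Of 56 families, 44 had a share above the 9.76% of all genes, 33 had 20% or more, and 7 had none. The families were chosen with earlier results of these data known, so such counts of families depend on that choice and are a description. Counted by annotated ends of all their genes, 25 had 20% or more and 43 were above the 9.35% of all genes. The share by listed starts was over 1.5 times that by ends in 8 families, and the reverse held in 3, so the values by ends are given beside such families where they are described. Together the families held 364 of the 1474 genes, so most genes of the set belonged to none of them.

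**Figure D3:**
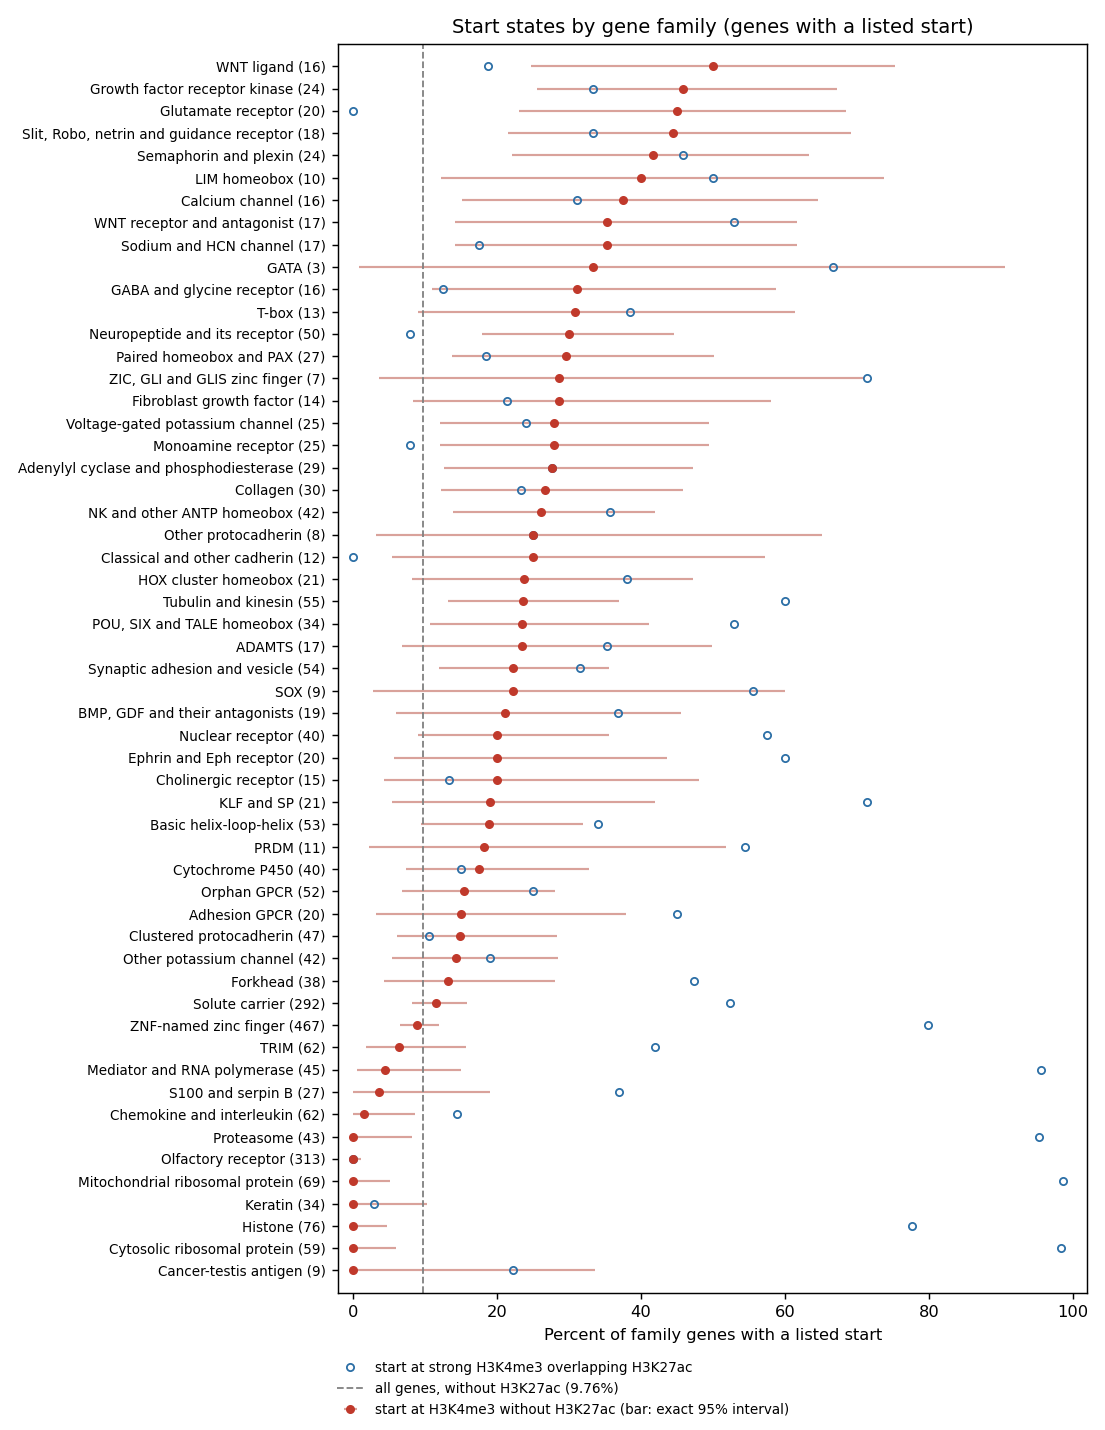
Percent of the genes of each family but 1, which is not plotted, with the number having a listed start in brackets, whose start lies at strong H3K4me3 without H3K27ac (filled points, bars are exact 95% intervals) or at a doubly marked peak (open circles). A gene with both kinds of start counts in the filled points only. The dashed line marks the 9.76% of all genes. Ligand, receptor and guidance families lie at the top, with WNT ligands at 50%, and ribosomal, proteasome and histone genes at 0.

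Secreted signals and guidance molecules made up the group with the highest share. Of 128 genes in 7 families, 44 (34.4%, 26.2 to 43.3) had the start state, and 51 (39.8%) were doubly marked. WNT ligands, which bind Frizzled receptors, had the highest share of the 56 families by listed starts, with 8 of 16 (50%, 24.7 to 75.3) against 3 doubly marked. By annotated ends they had 5 of 19 (26.3%), below sodium and HCN channels (45.8%) and other families, so their rank rests on the way of counting. The 8 were WNT1, WNT2, WNT2B, WNT3A, WNT5A, WNT7A, WNT9B and WNT16, of which WNT5A also had a doubly marked start. Their peaks ranged from 1350 to 3037 bp in width and from 880.5 to 3100 in score, and their gaps to H3K27ac from 5196 to 57206 bp. WNT7A had the widest peak, 3037 bp, with H3K27ac 16206 bp away.

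WNT pathway receptors and antagonists followed with 6 of 17 (35.3%), though 9 were doubly marked. Among the 6 were DKK1, an inhibitor of WNT co-receptors, with a 2287 bp peak of score 3100 that lay 111503 bp from H3K27ac, and the decoy receptor gene SFRP4. The receptor kinase gene ROR2 had a peak of 2814 bp. RSPO3, an enhancer of WNT signalling, had H3K27ac only 125 bp beyond its peak. The 4 fibroblast growth factor genes of 14 (28.6%) were FGF5, FGF12, FGF18 and FGF22, and the BMP family had 4 of 19 (21.1%; 10 of 30 or 33.3% by ends), with the BMP antagonist genes CHRD and GREM1 among them.

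Axon guidance genes gave some of the strongest peaks. Slit, Robo, netrin and related receptors counted 8 of 18 (44.4%, 21.5 to 69.2), among them the ligand genes SLIT1 and SLIT2, the receptor genes ROBO1, ROBO2, ROBO3, UNC5A and UNC5C, and NTNG1. SLIT2 had a 3485 bp peak of score 3100, 61811 bp from H3K27ac. Semaphorins and their plexin receptors counted 10 of 24 (41.7%, 22.1 to 63.4), with a median peak width of 2607 bp. SEMA6C had the widest of these, 3921 bp, and SEMA3D lay 134922 bp from H3K27ac. Ephrins and Eph receptors, in contrast, were doubly marked at 12 of 20 genes, and 4 (20%) had the peak alone: EFNB2, EPHA3, EPHA5 and EPHA7. EPHA7 had 4553 bp and a gap of 264004 bp.

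Growth factor receptor kinases, which signal through ligand-driven phosphorylation, counted 11 of 24 (45.8%, 25.6 to 67.2), and 8 were doubly marked. The 11 were ALK, AXL, ERBB4, FGFR3, FLT1, FLT3, KDR, MET, NTRK2, PDGFRA and RET. The ERBB4 peak was the widest at 3754 bp, and its nearest H3K27ac peak was 76683 bp away. MET, the receptor of hepatocyte growth factor, had a peak of 2347 bp with H3K27ac at 15823 bp. FLT1 and FLT3, neighbours on chromosome 13, had peaks of 2181 and 2201 bp at 62219 and 28467 bp from H3K27ac. All 6 of the highest by score, ERBB4, NTRK2, RET, MET, FLT3 and FLT1, stood at 3100.

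Receptors for transmitters and neuropeptides were seldom doubly marked. Of 126 genes in 5 families, 39 (31.0%, 23 to 39.8) had the peak without H3K27ac and 10 (7.94%) had both. Strong H3K4me3 at the starts of these genes was therefore mostly the kind without H3K27ac, at 39 genes against 10. Over all genes with a listed start the order was the reverse, with 1474 genes in the set and 8970 doubly marked. Glutamate receptors gave 9 of 20 (45.0%, 23.1 to 68.5) and none doubly marked. They included the AMPA receptor gene GRIA2, with a 1855 bp peak at 124491 bp from H3K27ac, and the metabotropic receptor gene GRM8, with 2678 bp and a score of 3100. Of monoamine receptors, 7 of 25 (28.0%) were in the set, among them the serotonin receptor genes HTR1E, HTR1F, HTR6 and HTR7. Neuropeptides and their receptors gave 15 of 50 (30%, 17.9 to 44.6) against 4 doubly marked. CRHR1 had a 3148 bp peak and the vasopressin receptor gene AVPR1A one of 2554 bp. The tachykinin gene TAC1 lay 97747 bp from H3K27ac.

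Ion channels, which set membrane excitability, counted 25 of 100 (25%, 16.9 to 34.7), and 22 were doubly marked. Calcium channels gave 6 of 16 (37.5%; 5 of 25 or 20% by ends), sodium and HCN channels 6 of 17 (35.3%), voltage-gated potassium channels 7 of 25 (28.0%) and other potassium channels 6 of 42 (14.3%). The calcium channel subunit gene CACNA2D1 had the highest score of these, 3181.13, on a 2920 bp peak 299294 bp from H3K27ac. NALCN, the sodium leak channel gene, lay 654915 bp from it. Several channel peaks were short, with 817 bp at CACNA1C and 858 bp at SCN8A.

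Synaptic adhesion and vesicle genes gave 12 of 54 (22.2%), with CLSTN2, SLITRK3 and the synapsin gene SYN2 at a score of 3100. SYN2 lay 100512 bp from H3K27ac. Of 12 classical and other cadherin genes with a listed start, 3 (25%) were in the set, CDH2, CDH20 and CDH23, and none was doubly marked. The family has 23 annotated genes, so this leaves out many. CDH1, a cadherin gene without a listed start, had both marks at an annotated end, each with a score of 3100. Clustered protocadherins, which give neurons their surface identity, had 7 of 47 (14.9%), all in the cluster on chromosome 5.

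Homeobox genes, which pattern the embryo, counted 36 of 134 (26.9%, 19.6 to 35.2), and 51 (38.1%) were doubly marked. Paired homeobox and PAX genes gave 8 of 27 (29.6%) against 5 doubly marked, among them PAX2, PAX5, PAX6 and SHOX2. The SHOX2 peak was 2995 bp wide with H3K27ac 2267 bp away. LIM homeobox genes gave 4 of 10 (40%, 12.2 to 73.8) by listed starts and 2 of 12 (16.7%) by annotated ends, and of the 4 ISL1 lay 266439 bp from H3K27ac. NK and other ANTP genes gave 11 of 42 (26.2%), with NKX6-1 at 3186 bp and HLX at 3230 bp. In the POU and TALE classes, counted with the relatives of SIX3, 8 of 34 (23.5%) had the peak alone and 18 both, and the neural factor gene POU3F2 had the widest peak, 4202 bp, at a score of 1061.78.

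Other developmental transcription factors counted 30 of 155 (19.4%, 13.5 to 26.5), and 74 (47.7%) were doubly marked. Basic helix-loop-helix genes gave 10 of 53 (18.9%), including the neural genes ATOH1, NEUROG1, NEUROG2, NHLH2 and OLIG3. None of these 10 had an H3K27ac peak in its span. Some of the spans are short, with 1683 bp at NEUROG1, 2212 bp at ATOH1 and 2665 bp at NEUROG2. The rule keeps H3K27ac out of the peak and 1 kb around the start, so it partly sets this outcome. T-box genes gave 4 of 13 (30.8%), TBR1, TBX1, TBX21 and TBXT, with scores from 795.8 to 2044.3. Of 38 forkhead genes, 18 (47.4%) were doubly marked and 5 (13.2%) were in the set. Nuclear receptors gave 8 of 40 (20%) by listed starts and 6 of 46 (13%) by ends. PGR, the progesterone receptor gene, had a 3299 bp peak of score 1626.59 and no H3K27ac within 117815 bp. HCC1599 is classed as triple-negative, which by definition lacks that receptor.

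Matrix genes were split. Collagens gave 8 of 30 (26.7%) against 7 doubly marked, with COL12A1, COL18A1, COL19A1 and COL25A1 beside the COL4A1 and COL4A2 pair. The metalloproteinase genes ADAMTS2, ADAMTS7, ADAMTS10 and ADAMTS14 were 4 of 17 (23.5%; 9 of 24 or 37.5% by ends), with ADAMTS2 at 3024 bp and 202608 bp from H3K27ac. Adenylyl cyclases and phosphodiesterases gave 8 of 29 (27.6%) by listed starts but 4 of 36 (11.1%) by annotated ends, near the 9.35% of all genes. Each of the 8 had H3K27ac inside its span, with 25 such peaks in PDE4B. Tubulins, kinesins and related genes gave 13 of 55 (23.6%), among them MAP1B, KIF5C and TUBB4A, which serve neuronal microtubules.

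Housekeeping genes were nearly absent. In 5 families of core cell machinery, 2 of 292 genes (0.685%, 0.0831 to 2.45) had the start state (4 of 348 or 1.15% by ends), and 269 (92.1%) were doubly marked. Cytosolic ribosomal proteins (0 of 59), mitochondrial ribosomal proteins (0 of 69), proteasome subunits (0 of 43) and histones (0 of 76) had none. Families with little strong H3K4me3 of either kind at listed starts had none as well, with 0 of 313 olfactory receptors and 0 of 34 keratins. For keratins this leaves out many genes, since only 34 of 55 have a listed start. KRT7, KRT15, KRT18 and KRT19, which have none, had H3K4me3 of score 3100 and H3K27ac at an annotated end. KRT8 had both at an end but no H3K4me3 at its listed start. Solute carriers gave 34 of 292 (11.6%, 8.2 to 15.9) and ZNF-named zinc finger genes 42 of 467 (8.99%, 6.56 to 12), near the share of all genes.

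Of the 42 zinc finger genes, 10 stood in 1 cluster. Between ZNF575 and ZNF180 on chromosome 19 (chr19:43530835-44500522), 10 of 19 genes with a listed start (52.6%, 28.9 to 75.6) had the peak without H3K27ac and 8 were doubly marked. Outside it, 15 of 209 ZNF genes of the chromosome did (7.18%). The cluster was singled out after its values were seen. Its genes were ZNF45, ZNF112, ZNF222, ZNF225, ZNF226, ZNF229, ZNF230, ZNF235, ZNF283 and ZNF285, which encode DNA-binding proteins of the zinc finger class. Their peaks were from 1873 bp (ZNF222) to 3277 bp (ZNF225) wide, 6 stood at a score of 3100, and the gaps to H3K27ac ran from 13907 bp (ZNF45) to 97674 bp (ZNF285).

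The widest peaks of the set belonged to genes of varied roles. The widest, 7152 bp on chromosome 7 (chr7:148982147-148989298), lay at a lncRNA start, with the nearest protein-coding gene 13753 bp away. The next, 6880 bp, lay at an end of the protocadherin gene PCDH10, 152893 bp from H3K27ac. At listed protein-coding starts, the neuronal adhesion gene ICAM5 came first with 5764 bp, then IGFBP3 with 5741 bp, GDNF with 5297 bp and IGFBP5 with 5125 bp. IGFBP3 and IGFBP5 encode binding proteins of insulin-like growth factors, and GDNF is a neurotrophic factor and ligand of the RET complex. All of these stood at the score of 3100 except IGFBP5, at 1667.06. TSHZ3 (4974 bp), EGR2 (4630 bp), GFI1 (4496 bp) and POU3F2 encode transcription factors, INSIG2 (4533 bp) a regulator of sterol synthesis and PPARGC1A (4450 bp) a coactivator of mitochondrial genes. GALNS, a lysosomal sulfatase gene, and TRAPPC2L shared a peak of 4574 bp. MDGA1 and EFNB2 had 4330 and 4297 bp, and POU3F2 came after them with 4202 bp.

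The starts farthest from H3K27ac lay in regions with few peaks of that mark. NOVA1, a neuronal splicing regulator gene, was 1051291 bp from the nearest one, with a peak of modest score (622.05). TSHZ3 followed at 990688 bp, the glycosyltransferase gene B3GALT1 at 664308 bp and NALCN at 654915 bp. ARHGAP24 (459955 bp), SERPINB8 (414874 bp), FAM13C (396738 bp), RNF180 (361465 bp), the lymphatic growth factor gene VEGFC (332124 bp) and CDH20 (300390 bp) came next. B3GALT1 and RNF180 stood at a score of 3100, so that a large gap went with high as well as modest scores.

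Peaks of the set joined where under 50 kb apart formed 2271 single sites, 260 pairs, 42 runs of 3, 11 of 4, 1 of 5 and 1 of 6. The longest run lay over the HOXD cluster (chr2:176092066-176189463), with 6 peaks of 1182 to 1814 bp, at the starts of HOXD13, HOXD8, HOXD3 and HOXD1. HOXD1 stood at a score of 3100 and HOXD13 at 952.26, and H3K27ac came within 2558 bp of the HOXD13 peak. The run of 5 lay on chromosome 6 (chr6:28746697-28826488) over 12 tRNA genes and no protein-coding gene. Runs of 4 included one beside SIX3, a forebrain homeobox gene, from position 44933844 of chromosome 2, and one in NFIA, a transcription factor gene.

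Some genes of the set used another start that was doubly marked. Of 523 genes with more than 1 listed start, 86 (16.4%) had one, at a median distance of 47814 bp. The start without H3K27ac was the upstream one in 36 genes and the downstream one in 50. In the phosphodiesterase gene PDE4B the start without H3K27ac lay 539598 bp upstream of a doubly marked start, and in the retinoic acid receptor gene RARB 598942 bp upstream. In GATA3, the luminal breast transcription factor gene, the distance was 3787 bp, and the H3K27ac peak at the other start had a score of 87.5. In PAM and SESN1 the doubly marked start was the upstream one. For these 86 genes, the peak describes 1 promoter and not the gene.

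The promoter DNA of the set was nearly as rich in CpG as that of doubly marked starts. In the 300 bases around each of 1841 starts, from 250 before to 50 after, the median was 27 CpG, the G plus C content 67.7% and the observed over expected CpG ratio 0.8 (0.667 to 0.91). At doubly marked starts these were 27, 66.3% and 0.851 (0.72 to 0.958), and at starts without H3K4me3 4, 50.7% and 0.256. Promoters with a ratio of at least 0.6 and at least 50% G plus C made up 80.4% (78.6 to 82.2) of the set, 84.1% (83.4 to 84.7) of doubly marked starts, 44.2% of starts at other H3K4me3 peaks and 60.4% of all 21156 listed starts. The CpG ratio was lower than at doubly marked starts also at equal peak width, with 0.794 and 0.814 for peaks of 1500 to 2500 bp and 0.81 and 0.845 for those of 2500 to 3500 bp.

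**Figure D4:**
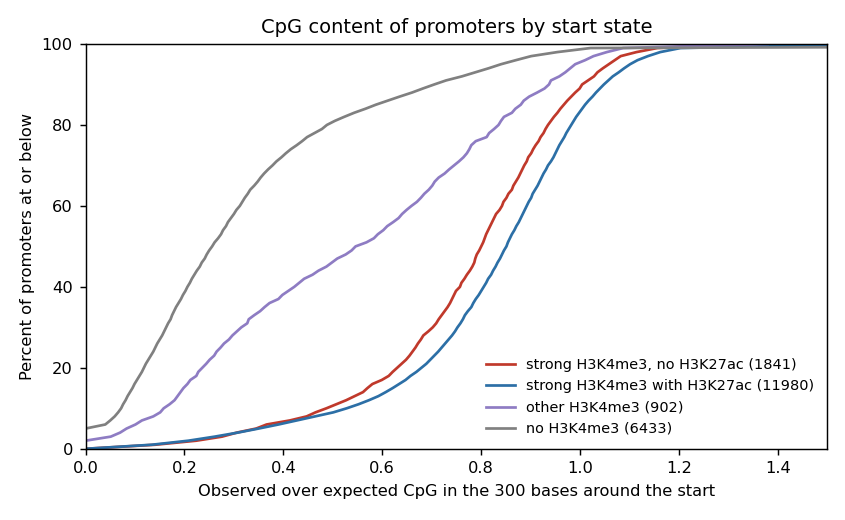
Cumulative percent of promoters by observed over expected CpG in the 300 bases around the start, for each of 4 start states with the number of starts in brackets. The curve of strong H3K4me3 without H3K27ac (median 0.8) runs close to that of doubly marked starts (0.851) and far from that of starts without H3K4me3 (0.256).

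Short motifs were searched in the same 300 bases on both strands; none of them contains another, and each was counted on its own. The GC box GGGCGG, bound by SP factors, was as common in the set (72.3%) as at doubly marked starts (72.8%), against 56.6% of all listed promoters. The ETS core CCGGAAG stood apart, with 7.71% (6.54 to 9.03) of the set, 19.7% (19 to 20.4) of doubly marked starts and 12.9% of all. The YY1 core AAGATGG gave 2.88% (2.16 to 3.75), 7.51% (7.05 to 8.0) and 5.96%. Both cores are common in promoters of housekeeping genes. The NRF1 core GCGCATG was found in 4.78% of the set, 7.58% of doubly marked starts and 5.18% of all. The cyclic AMP element TGACGTCA was found in 2.06%, 3.2% and 2.31%, and the E-box CACGTG in 8.37%, 10.2% and 8.25%. The CCAAT box was found in 30.7%, 34.9% and 34.4%. These 4 were lower in the set than at doubly marked starts, and the TATA box TATAAA was slightly higher, with 6.46%, 4.95% and 9.51%. At equal peak width the order held for the ETS core, with 7.19% against 14.5% at 1500 to 2500 bp and 9.33% against 20% at 2500 to 3500 bp. It held likewise for YY1, with 2.4% against 5.74% and 3.78% against 7.61%. NRF1 was lower too, with 4.3% against 6.08% and 5.56% against 8.28%, but its intervals overlapped in both bands. The GC box was lower in the first band (70.7% against 73.5%) and higher in the second (77.8% against 74.3%). These width bands were added after the data were seen. Among the 8 promoters printed above, ZNF324 alone held the ETS core, ERBB4, CRHR1, CLSTN2, MAP1B and SLC30A3 held the GC box, MAP1B and ARHGEF26 held the TATA box, CLSTN2 the cyclic AMP element, and HLX and ZNF324 the CCAAT box. A match describes these letters and is not evidence of binding.

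MicroRNA hairpins were rare under these peaks. Of 1461 hairpins on chromosomes 1 to 22, 13 (0.89%) lay in 12 peaks of the set, and 198 (13.6%) in doubly marked peaks. The set covered 5.85 Mb and doubly marked peaks 47.9 Mb, so these shares are not for equal amounts of DNA. The 5 mature sequences below are shown because they belong to the better known hairpins or share a seed. They are from RefSeq, 5′ to 3′, with the seed (bases 2 to 8) in capitals, and the first pair have the same seed, AGGCAGU, although their genes lie on different chromosomes.
hsa-miR-2682-5p: cAGGCAGUgacuguucagacguc
hsa-miR-449c-5p: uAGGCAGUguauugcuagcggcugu
hsa-miR-137-3p: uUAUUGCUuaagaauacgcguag
hsa-miR-129-5p: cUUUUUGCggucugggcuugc
hsa-miR-375-3p: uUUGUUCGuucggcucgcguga
MIR137 and MIR2682, hairpins on chromosome 1, shared a peak of 1752 bp with a score of 1102.97, whose nearest H3K27ac peak was 110208 bp away. MIR449C, on chromosome 5, lay under a peak of 1801 bp, 2382 bp from H3K27ac. MIR129-2 lay under the widest of the 12, 3239 bp with a score of 2774.27. MIR375, known from pancreatic islets and luminal breast cells, lay under a 2299 bp peak of score 677.41 at 17323 bp from H3K27ac.

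Some peaks of the set away from protein-coding starts lay at non-coding genes. Of 11145 lncRNA genes with a listed start, 422 (3.79%) had a start at such a peak without H3K27ac within 1 kb. A further 2406 (21.6%) were doubly marked. Protein-coding genes with a listed start gave 9.76% and 59.4%. Away from protein-coding starts there were 155 lncRNA genes at 142 peaks, of which 39 bear LINC symbols and 26 are named as antisense to another gene. EP300-AS1, named as antisense to the acetyltransferase gene EP300, had a peak of 2756 bp with a score of 3145.87, and H3K27ac lay 6135 bp away.

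Transfer RNA genes, which RNA polymerase III transcribes, lay near a peak of the set alone in 20 of 439 cases (4.56%, 2.8 to 6.95). They lay near a doubly marked peak in 201 (45.8%). Counted alike, over the span and 1 kb beyond it, protein-coding genes gave 4.8% (4.51 to 5.12) and 61.0%. LncRNA genes gave 2.99% and 19.9%. The tRNA share near the set alone was thus close to that of protein-coding genes. Of the 20, 14 were on chromosome 6, at 11 peaks, and 4 on chromosome 14. The 15 peaks concerned were 811 to 5262 bp wide (median 1826 bp), and all 15 lay away from protein-coding starts and ends. The highest score, 3108.29, belonged to a 2373 bp peak at a pair of arginine tRNA genes (chr6:27213160-27215532).

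Markers of the labelled cell type fell outside the set. Of 15 markers of breast epithelium, 13 had both marks at an annotated end. None had a peak of the set alone at its listed start or either end. By ends the set held 9.35% of all protein-coding genes, so none among 15 genes is near the share of all. Among markers of other cell types, the endothelial receptor gene KDR (1 of 4) and the neuronal synaptotagmin gene SYT1 (1 of 5) were in the set, and none of 6 leukocyte or 5 fibroblast markers was. KDR had a score of 3021.0 and SYT1 one of 1085.2. The leukocyte marker CD79A and the fibroblast marker COL1A1 had H3K4me3 at an end, with scores of 3100 and 2137.6. Neither had H3K27ac at an end, yet neither had a peak of the set alone there. The defining endothelial genes PECAM1, VWF and CDH5 had neither mark at their ends.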

How the data were processed

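Peak lists of H3K4me3 and H3K27ac, 1 library each, were used; the input was not analysed here. The submitters' processing notes name Bowtie2 (no version given), MACS 1.4 and hg38, without parameters. The authors deposited 1 score per peak, whose unit is not stated; both lists start at 30, and H3K4me3 piles up at 3100. It served only to rank and select peaks inside each list. No read depth is known, so no interval rests on it.

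Positions are counted from 1. Gene spans, starts and sequences came from RefSeq tables of GRCh38.p14, the same build family. Of 19126 autosomal protein-coding genes, 15101 matched a listed start (21156 starts); the others were counted by annotated ends only. A start was assigned to a peak within 1 kb, and a gene joined the set if a listed start lay at a peak of the set without H3K27ac within 1 kb. Such a gene was not counted as doubly marked, even where another of its starts was. Families are symbol patterns, and the values of 1 family are not reported here.

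The members and the lists were chosen with earlier results of these data known, so counts carry no test. Named genes were those at the 15 widest peaks at starts, up to 6 per family by score then width (families of 3 or more), those in the 5 densest stretches, the 10 starts farthest from H3K27ac, the peaks next to the threshold and cell type markers. Family members listed beyond these, the zinc finger cluster, the genes with another start, the miRNAs and the peaks away from starts were chosen after values were seen. Alternatives were other score minimums, H3K27ac of score at least 100, gaps of 1 and 5 kb, joined peaks, other start windows, every gene kind and annotated ends. Python 3.11.15, numpy 2.4.6, pandas 2.3.3, scipy 1.17.1 and matplotlib 3.10.9 were used. Overlaps were checked against bedtools 2.31.1 (difference 0) and tested on 2200 simulated peaks, with 0 wrong distances and 0 wrong states.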

Additional observations from a re-analysis of the deposited data

How the results depend on the processing

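The set grew or shrank with the score limits. With H3K4me3 scores from 100 it held 4918 peaks (40.9% at a listed protein-coding start, median width 1495 bp, median gap 17123.5 bp). From 1000, 57.9% lay at a start and the width was 2057 bp. From 3100 it held 755 peaks (68.7% at a start, 2503 bp, gap 20384 bp, 530 genes, CpG ratio 0.822). Counting only H3K27ac peaks of score 100 or more gave 4705 peaks, 54.8% at a start, 1989 bp and 2482 genes, so many doubly marked peaks met weak H3K27ac only. Requiring a gap of 5 kb moved the width to 1889 bp and joining peaks under 500 bp apart to 1954.5 bp. A start window of 2500 bp gave 54.1% at a start, and starts of every gene kind 57.8%. Families with a share of 20% or more numbered 33 also with windows of 500 and 2500 bp. In alternatives added after the data were seen, they numbered 25 by annotated ends and 42 with H3K27ac of score 100 or more. No paired analysis was possible because each mark had 1 library. Read depth is unknown, so weak H3K27ac below the authors' calling limit would count as none.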
